A study of Mus musculus with 36 samples.

Results

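The transient first-day response to KOS comprised 33 array probes that were brighter with doxycycline than without it on day 1 of the culture of secondary mouse embryonic fibroblasts (MEFs), with a difference below a set limit on day 6. The name is a label for this choice and does not describe every member. In the tests below on cultures labelled with tamoxifen, 8 members had no called fall with doxycycline between days 1 and 6. In the same cultures 12 members were called higher with doxycycline on each of days 1, 3 and 6. They were chosen among the 25030 probes of the deposited series matrix by its log10 values. D1 and D6 stand for the means of the doxycycline cultures without tamoxifen on days 1 and 6, and N1 and N6 for the means of the cultures with neither drug. A member had a D1 of at least 2.5, a D1 minus N1 of at least 0.45 and a D6 minus N6 under 0.15. The mean of embryonic stem (ES) and induced pluripotent stem (iPS) cells also had to lie within 0.6 of the mean of untreated primary MEFs. D1 was at least 2.5 for 12102 probes, 639 of them also passed the limit on D1 minus N1, and 345 of these passed the limit on stem cells against fibroblasts. The other 312 of the 345 kept a D6 minus N6 of 0.15 or more and are called sustained here.

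The study measured RNA on 36 two-colour arrays in 18 groups of 2, each pairing a Cy3-labelled sample with the same Cy5-labelled pool of cell line and ES cell RNA. The secondary MEFs, labelled 2ndMEF-KOS-ZERT2, clone #1, on a hybrid C57Bl/6 x 129 background, had doxycycline and tamoxifen (Dox+Tmx+), doxycycline alone (Dox+Tmx-), tamoxifen alone (Dox-Tmx+) or neither (Dox-Tmx-) for 1, 3 or 6 days. All 12 of these groups were secondary MEFs with the KOS and ZERT2 transgenes, grown in ES medium with LIF, with doxycycline at 1.5 µg/ml and tamoxifen at 200 nM where given. The iPS cells, labelled KOS-ZERT2, clone #2, and the v6.5 ES cells had the same medium. The primary MEFs, MEF2 ZERT2 with the Zscan4ERT2 transgene and the wild MEF3, were F1 hybrids from V6.5, each labelled Tmx+ or Tmx-, and grew in MEF medium. The protocols of the MEF3 Tmx+ samples, and of replicate 2 of Dox-Tmx+ on day 1, name no tamoxifen. Nothing in the labels describes separate cultures for the samples of a group, so the p-values below measure the spread between samples, which may be technical.

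KOS stands in this field for the transcription factors Klf4, Oct4 and Sox2, which together can turn fibroblasts into iPS cells. Secondary MEFs come from animals made with iPS cells, so that their fibroblasts already carry the inducible factors and doxycycline switches them on. ERT2 is a hormone receptor domain that becomes active with tamoxifen compounds, here fused to Zscan4, a factor of early embryos and of a small share of ES cells. The first days of such a culture are known for the loss of fibroblast gene expression, well before the endogenous pluripotency genes come on.

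The files give each probe as an identifier and a sequence of 60 bases with no gene name, and no position in the genome, so members are named by probe and their genes are not given. Levels of the transgenes and of cell type markers could not be checked for the same reason. The last 30 bases of 4 probes are shown because these probes carry the 3 patterns described below, with AATAAA, the most common polyadenylation signal of mRNA 3′ ends, in capitals.
Z00050062-1: atactatttatgatcttaacatAATAAAgc
Z00030632-1: taaagtgtttgttaaagacacctccacttt
Z00024619-1: ggaggggtatacttAATAAAgttactgctg
Z00024847-1: gaggactacgagagtcaccggctgcagaga
AATAAA, searched on the strand of the probe, was in 7 of 33 member probes (21.2%) and in 7.90% of the 25030 probes of the same length. ATTTA, the core of AU-rich elements of unstable mRNAs, was in 2 of 33 members (6.06%) and in 7.73% of all probes. The median GC content was 43.3% in both. These shares are a description of the letters in these windows.

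On the arrays of the rule, given here without a test, D6 was below D1 for 27 of 33 members and N6 above N1 for 26, so that the doxycycline difference narrowed from both sides for the 20 members with both. The rise of N exceeded the fall of D for 18 members, and the fall of D exceeded the rise of N for 15. The median of D6 minus D1 was -0.35 (range -1.15 to 0.18) and that of N6 minus N1 was 0.36 (lowest -0.17), both on the log10 scale. The median of D1 minus N1 was 0.61 (lowest 0.45), that of the same difference on day 3 was 0.31 (-0.24 to 1.00) and that of D6 minus N6 was -0.02 (-0.62 to 0.13). Z00050062-1, whose N1 arrays were not well above background, has only a bound in the differences from N1. Among the other members, D1 minus N1 reached 1.37 in Z00030632-1 and N6 minus N1 reached 1.23 in Z00024847-1. D6 was below N6 for 17 members and above it for the other 16. Members just inside the limits had a D1 of 2.59, a D1 minus N1 of 0.452 and a D6 minus N6 of 0.130, and probes just outside had 2.47, 0.448 and 0.163. For stem cells minus primary MEFs the members reached -0.597 and 0.565, and the nearest other probes had -0.636 and 0.638.

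Arrays that the rule did not use, the 12 of secondary MEFs labelled Tmx+ and the 4 of day 3 labelled Tmx-, served for the tests. The values below are log2 ratios of sample over reference made from the scanner intensities, tested with limma over 33099 probes, with an adjusted p under 0.05 as the threshold. All 33 members were among these probes. Per array, 54.9% to 77.1% of all probes had a sample signal well above background. No member spot was saturated, and 31 of the 33 members were well above background on all 36 arrays. The exceptions were Z00050062-1, on 32 arrays, and Z00053045-1, on 34. Each slide of secondary MEFs held the arrays with and without tamoxifen of 1 doxycycline state on 1 day, so doxycycline and slide cannot be told apart within a day. The day 1 arrays were scanned on a day of their own, so that culture time between day 1 and the later days cannot be told apart from the scan day. Each culture day also had slides of its own, so changes between days, that from day 3 to day 6 included, cannot be told apart from slide. In bulk RNA, fewer cells of a type and less RNA per cell cannot be told apart either.

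Day 1 is compared in groups labelled Tmx+, although the protocol of replicate 2 of Dox-Tmx+ names no tamoxifen. In Dox+Tmx+ against Dox-Tmx+ on day 1, 23.1% of the 33099 probes were called higher and 22.0% lower. All 33 members were called higher. Their median log2 difference was 1.78, against -0.01 over all probes. The lowest was 1.11 and the highest with both groups well above background was 3.79, in Z00030632-1, since Z00050062-1 had only a bound there. For each member both doxycycline arrays were above both arrays without it, a count not made over all probes. The rule required a day 1 difference in the groups labelled Tmx- on the same slides, so these day 1 counts are a description. On day 3 with tamoxifen, 27 members were called higher and 2 lower, against 32.9% and 27.7% of all probes, with a member median of 1.16 (range -0.39 to 3.14). On day 3 without tamoxifen, Dox+Tmx- against Dox-Tmx-, 27 members were called higher and 1 lower, against 31.0% and 27.0% of all probes, with a median of 1.05. The same 27 members were called higher in both day 3 comparisons. On day 6 with tamoxifen, 12 members were called higher and 13 lower, against 31.1% and 28.0% of all probes, with a median of -0.12 (range -1.79 to 1.07). As shares of the members these were 36.4% higher and 39.4% lower. The rule capped D6 minus N6 in the groups labelled Tmx- on the same slides, so these shares are a description. Over the days, 6 members were called higher with doxycycline and tamoxifen on day 1 only, 15 on days 1 and 3 and 12 on all of days 1, 3 and 6.

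**Figure D1:**
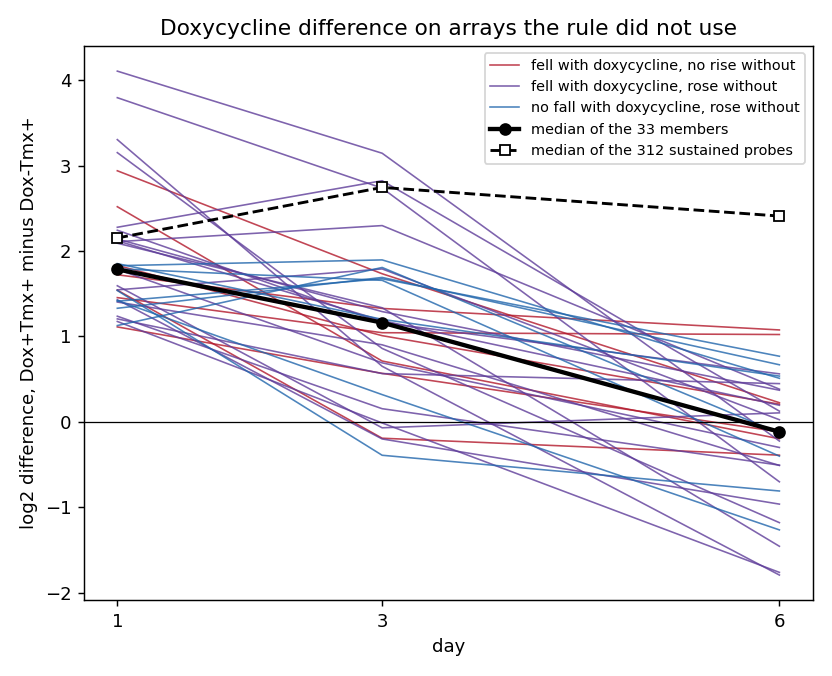
The vertical axis gives the log2 difference of Dox+Tmx+ minus Dox-Tmx+ and the horizontal axis the day, with 1 thin line for each of the 33 members coloured by pattern. The solid black line is the median of the members, at 1.78, 1.16 and -0.12 on days 1, 3 and 6, and the dashed line that of the 312 sustained probes, which was 2.41 on day 6. The line that starts highest is Z00050062-1, whose day 1 arrays without doxycycline were not well above background.

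The change of the doxycycline difference was itself tested, as day 6 minus day 1 with tamoxifen. It was called lower for all 33 members, against 21.5% of all probes, with a member median of -1.91 (range -5.10 to -0.43). Among the 312 sustained probes, 136 were called higher and 105 lower in the same test, with a median of 0.12. The rule selected both sets on the course of the doxycycline difference in the cultures without tamoxifen, on the same slides. For the members it required a narrowing there, so the 33 calls and the contrast with the sustained probes are a description.

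Between day 1 and day 6, more members fell than rose with doxycycline, and more rose than fell without it. In Dox+Tmx+, 25 members fell and 6 rose, against 27.0% and 30.0% of all probes called lower and higher, with a member median of -0.77. In Dox-Tmx+ over the same days, 26 members rose and 2 fell, against 27.7% and 26.2% of all probes called higher and lower, with a median of 1.13. Of the 33 members, 18 fell with doxycycline and rose without it, 7 fell with doxycycline with no called rise without it, and 8 rose without doxycycline with no called fall with it. Of the 7, 2 also fell without doxycycline, and of the 8, 6 also rose with it. In the sustained probes, 181 rose and 72 fell with doxycycline, with a median of 0.34, and 137 rose and 60 fell without it, with a median of 0.11. For members the rule required a fall of D, a rise of N or both in the groups labelled Tmx- on the same slides. It did not set which side moved. The counts of members and the contrast with the sustained probes are therefore a description.

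**Figure D2:**
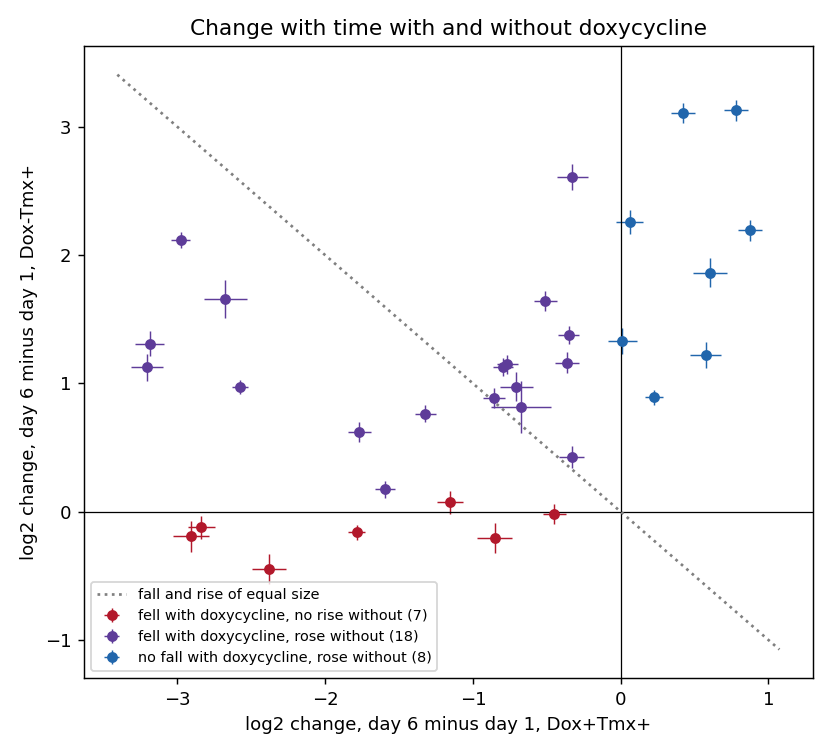
Each point is 1 of the 33 members, with the log2 change from day 1 to day 6 in Dox+Tmx+ on the horizontal axis and that in Dox-Tmx+ on the vertical axis; bars are SE. The 18 purple members lie at upper left, the 7 red ones at left near or below 0 on the vertical axis, and the 8 blue ones at upper right, and the dotted line marks a fall and a rise of equal size.

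The first step was tested in both cultures and the second with doxycycline; whether the steps differ between the cultures was not tested. From day 1 to day 3, 21 members fell and 10 rose in Dox+Tmx+, against 21.2% and 28.2% of all probes, and from day 3 to day 6, 22 fell and 3 rose, against 22.4% and 18.7%. In Dox-Tmx+, 22 members rose and 2 fell from day 1 to day 3, against 21.0% and 19.7% of all probes. The day 3 mean lay between those of days 1 and 6 for 20 members in Dox+Tmx+ and for 28 in Dox-Tmx+. In 11 members the Dox+Tmx+ mean of day 3 was above that of day 1. These counts of means were not made over all probes. The rule chose members by the day 1 and day 6 differences of the groups labelled Tmx- on the same day 1 and day 6 slides. That choice favours a fall from day 1 with doxycycline and a rise from day 1 without it, so the counts of both steps are a description.

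Set against the untreated primary MEFs, the 2 sides of the day 1 difference had different levels. The following levels are log2 ratios minus the mean of the 4 untreated primary MEF arrays, which served in the rule, and are given without a test. On days 1, 3 and 6 the median over members was 0.66, 0.42 and -0.24 in Dox+Tmx+ and 0.74, 0.39 and -0.32 in Dox+Tmx-. The medians were -1.40, -0.62 and -0.08 in Dox-Tmx+ and -1.28, -0.57 and -0.19 in Dox-Tmx-. The uninduced cultures were thus furthest below the primary MEFs on day 1 and near them on day 6. Both Dox+Tmx+ arrays of day 1 lay above all 8 primary MEF arrays for 20 members and below all of them for 8. Both Dox-Tmx+ arrays of day 1 lay below all 8 for 28 members and above all for 2, and on day 6 they lay below all 8 for 11 members and above all for 6. These counts were not made over all probes, so they do not show a trait particular to the members. The primary and secondary MEFs also differed in medium, slide and scan day, and in how their background was labelled. The part of these in the levels was not tested.

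The medians of the other groups were -0.55 in iPS cells, -0.53 in ES cells, -0.01 in MEF2 ZERT2 Tmx+ and 0.10 in MEF3 Tmx+. Stem cells were spread widely, between -2.38 and 1.04 in iPS cells and between -1.88 and 2.12 in ES cells, and the level was below that of the primary MEFs for 24 members in each. The tamoxifen-labelled primary MEFs stayed between -0.71 and 0.85 of the untreated ones. Of the 18 group means, the highest was a day 1 doxycycline group for 17 members, a primary MEF group for 8 and a day 3 doxycycline group for 4. The lowest was a day 1 group without doxycycline for 20 members and iPS cells for 6. The counts in this paragraph were not made over all probes, and the rule itself used day 1 arrays with and without doxycycline.

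**Figure D3:**
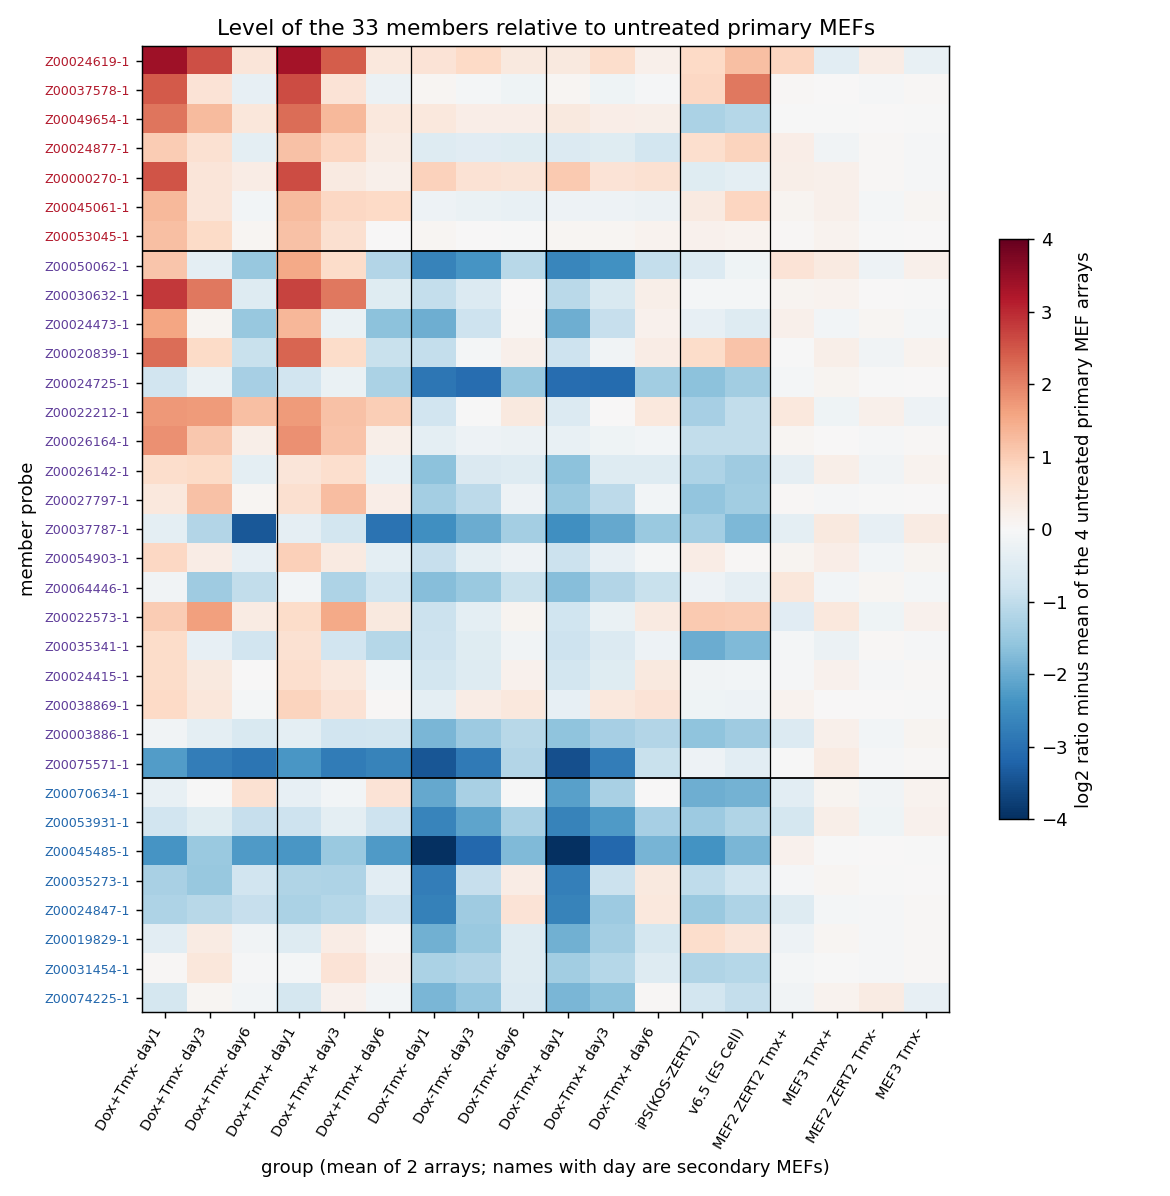
Rows are the 33 members in the 3 patterns (7, 18 and 8 from top to bottom) and columns the 18 groups, each the mean of 2 arrays; colour is the log2 ratio minus the mean of the 4 untreated primary MEF arrays, cut at -4 and 4. The top rows are red on day 1 with doxycycline and pale without it, and the bottom rows are pale or blue with doxycycline and deep blue on day 1 without it.

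The probes described next were chosen by the values of the rule: the 6 with the largest D1 minus N1, the 3 with the lowest D6 minus D1 and the 3 with the largest N6 minus N1, which made 8 probes. Z00050062-1 held all 3 roles. Its log2 ratio was 3.65 and 3.69 in Dox+Tmx+ on day 1, 3.04 and 2.76 on day 3, then 0.96 and 1.02 on day 6. In Dox-Tmx+ it was -0.51 and -0.36 on day 1, -0.18 and -0.31 on day 3, then 1.07 and 1.36 on day 6. The 2 cultures did not overlap on days 1 and 3, and on day 6 the uninduced arrays were both above the induced ones. The probe was not well above background on any day 1 array without doxycycline, so its day 1 difference is a bound. It was at least 15.4-fold higher in Dox+Tmx+ than in Dox-Tmx+ on day 1 and at least 12.6-fold higher in Dox+Tmx- than in Dox-Tmx-, which is a rule comparison. These bounds were not tested. The log2 difference fitted in limma for Dox+Tmx+ against Dox-Tmx+ was 4.11 (adjusted p = 2.38e-17), a value that uses the dim arrays. The bound sets the dim group at the higher of its own signal and the lowest signal well above background. On day 6 the log2 difference with tamoxifen was -0.23 (SE 0.148, adjusted p = 0.199). In Dox-Tmx+ the probe was at least 2.71-fold higher on day 6 than on day 1, a bound that was not tested. The log2 change fitted in limma was 1.66 (adjusted p = 8.24e-10).

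Z00050062-1 also differed by tamoxifen on day 3, where the log2 ratio was 3.04 and 2.76 in Dox+Tmx+ and 1.80 and 1.78 in Dox+Tmx-. The difference was 1.11 (SE 0.148, adjusted p = 1.85e-05 in limma), the arrays of the 2 groups did not overlap, and they shared 1 slide. With local backgrounds used as deposited, the difference was 1.11 and the adjusted p 0.0919. Beside cultures without doxycycline the tamoxifen difference of day 3 was -0.05 (SE 0.148), and the difference between the 2 was 1.16 (SE 0.209, adjusted p = 0.00185), a test in which 1.96% of all probes were called higher. That test was not recomputed with other processing. Over the 33 members, tamoxifen beside doxycycline on day 3 had 3 called higher and 4 lower, against 5.17% and 2.15% of all probes, with a member median of 0.01. With local backgrounds as deposited, 1 member was called higher and 1 lower. Tamoxifen without doxycycline on day 3 had 0 calls in members and 0 in all 33099 probes.

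Z00030632-1 had a log2 ratio of 3.06 and 3.12 in Dox+Tmx+ on day 1, 2.57 and 2.44 on day 3, then -0.15 and -0.05 on day 6. In Dox-Tmx+ it was -0.81 and -0.60, then -0.29 and -0.18, then 0.41 and 0.80 on the same days. Its doxycycline difference was 3.79 on day 1 (SE 0.096, adjusted p = 2.44e-20 in limma) and 2.74 on day 3, and it was lower with doxycycline on day 6 by a log2 difference of -0.70 (adjusted p = 7.31e-07). The fall with doxycycline between day 1 and day 6, -3.19, was larger than the rise without it, 1.31, and most of the fall came after day 3. The 2 day 6 Dox+Tmx+ arrays were below the 4 untreated primary MEF arrays, which lay between 0.33 and 0.46.

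Z00024473-1 had a log2 ratio of 2.95 and 3.04 in Dox+Tmx+ on day 1, 1.36 and 1.39 on day 3, then 0.05 and -0.01 on day 6, against -0.24 and -0.37, 0.70 and 0.75, and 1.80 and 1.83 in Dox-Tmx+. The 2 cultures had changed places by day 6, where the doxycycline difference was -1.79 (SE 0.0615, adjusted p = 3.23e-18 in limma). Its change of the difference, -5.10 (SE 0.0869), was the lowest fitted value among the 33 members. With tamoxifen beside doxycycline it was lower on day 3, by a log2 difference of -0.39 (adjusted p = 0.00017), a call not made with local backgrounds as deposited (adjusted p = 0.29). The uninduced arrays of day 6 were close to the 4 untreated primary MEF arrays, between 1.57 and 1.80.

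Z00020839-1 had a log2 ratio of 1.66 and 1.81 in Dox+Tmx+ on day 1, 0.14 and 0.16 on day 3, then -1.45 and -1.49 on day 6, against -1.34 and -1.48, -0.69 and -0.73, and -0.46 and -0.12 in Dox-Tmx+. Its fall with doxycycline was -3.21 (SE 0.107, adjusted p = 5.64e-18 in limma) in nearly equal steps of -1.59 and -1.62, and its rise without doxycycline was 1.13. On day 6 it was lower with doxycycline by a log2 difference of -1.18 (adjusted p = 6.62e-10).

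Z00024619-1 was the member of the pattern without a called rise that had the largest day 1 difference. Its log2 ratio was 3.43 and 3.52 in Dox+Tmx+ on day 1, 2.56 and 2.56 on day 3, then 0.42 and 0.72 on day 6. In Dox-Tmx+ it was 0.62 and 0.46, then 0.82 and 0.83, then 0.47 and 0.22, and the arrays of the 2 cultures overlapped on day 6 only. The difference was 2.94 on day 1 (SE 0.123, adjusted p = 5.19e-16 in limma), 1.73 on day 3 and 0.22 on day 6 (adjusted p = 0.127). Between day 1 and day 6 it fell by 2.91 on the log2 scale with doxycycline, and without it the change was -0.19 (adjusted p = 0.2). Over the 7 members of this pattern the median change was -1.79 with doxycycline and -0.16 without it, and the medians of their levels without doxycycline stayed within 0.15 of the primary MEFs on all 3 days.

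**Figure D4:**
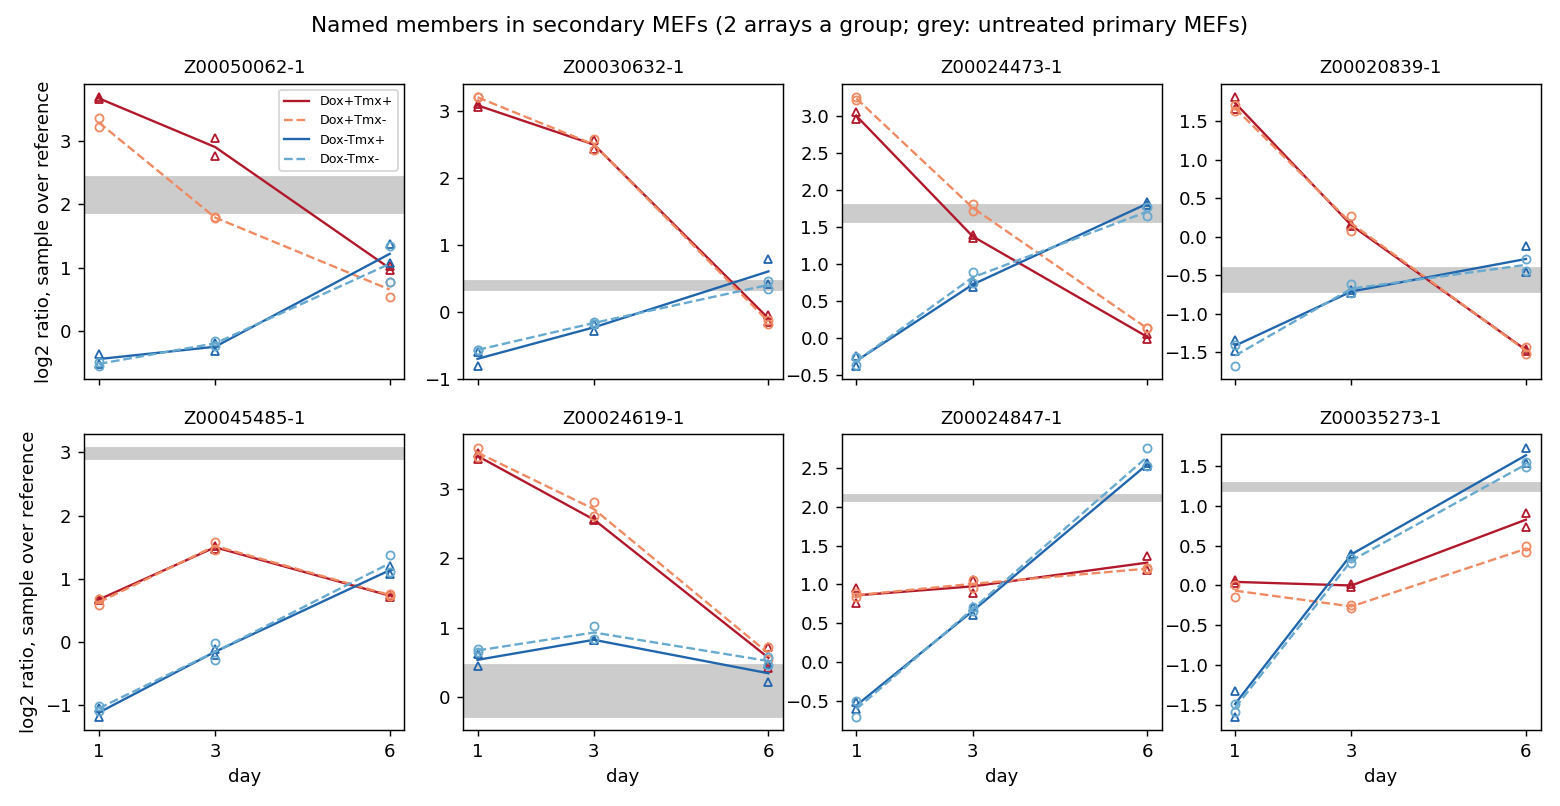
Each panel plots the log2 ratio of 1 named probe in secondary MEFs against the day, with a point for each array, a line through the mean of 2, and a grey band over the 4 untreated primary MEF arrays. With doxycycline (red), 5 of the 8 probes are highest on day 1, and without it (blue) 7 of the 8 are highest on day 6, Z00024619-1 excepted.

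Z00024847-1, Z00035273-1 and Z00045485-1 belonged to the 8 members that rose without doxycycline with no called fall with it. Z00024847-1 had a log2 ratio of 0.95 and 0.77 in Dox+Tmx+ on day 1, 0.89 and 1.06 on day 3, then 1.19 and 1.37 on day 6, against -0.51 and -0.61, 0.71 and 0.60, and 2.52 and 2.57 in Dox-Tmx+. It rose by 0.42 with doxycycline (SE 0.0808, adjusted p = 8.44e-05 in limma) and by 3.11 without it (adjusted p = 1.65e-19). The doxycycline difference was 1.42, 0.32 and -1.27 on days 1, 3 and 6. The day 3 call (adjusted p = 0.00148) was lost with the log ratio of Feature Extraction (adjusted p = 0.159), with the series matrix (adjusted p = 0.175) and with local backgrounds as deposited (adjusted p = 0.34).

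Z00035273-1 had a log2 ratio of 0.03 and 0.06 in Dox+Tmx+ on day 1, 0.02 and -0.02 on day 3, then 0.91 and 0.74 on day 6, against -1.33 and -1.65, 0.38 and 0.40, and 1.54 and 1.73 in Dox-Tmx+. It was higher with doxycycline on day 1 by 1.54 and lower already on day 3, by -0.39 with tamoxifen (SE 0.0826, adjusted p = 0.00022 in limma) and -0.58 without it (adjusted p = 1.54e-06). It was the member called lower with doxycycline in both day 3 comparisons. Its rise in Dox-Tmx+ from day 1 to day 6, 3.13, was the largest fitted rise among the 33 members.

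Z00045485-1 had a log2 ratio of 0.68 and 0.66 in Dox+Tmx+ on day 1, 1.52 and 1.48 on day 3, then 0.74 and 0.72 on day 6, against -1.06 and -1.19, -0.21 and -0.11, and 1.20 and 1.07 in Dox-Tmx+. With doxycycline it rose to day 3 by 0.83 (SE 0.0922, adjusted p = 4.75e-08 in limma) and was back near the day 1 values on day 6, with a change from day 1 of 0.06 (adjusted p = 0.595). All 24 secondary MEF arrays were below the 4 untreated primary MEF arrays, which lay between 2.90 and 3.07.

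Over the 8 members of this pattern the median change between day 1 and day 6 was 0.50 with doxycycline and 2.03 without it. Their median level relative to the primary MEFs on day 1 was -0.77 in Dox+Tmx+ and -2.42 in Dox-Tmx+, so both cultures lay below the primary MEFs on day 1. Over the 18 members of the shared pattern the corresponding medians of day 1 were 0.70 and -1.28, and over the 7 members with a fall alone they were 2.22 and 0.09. The patterns were defined on these tamoxifen arrays. In the arrays without tamoxifen, Dox+Tmx- and Dox-Tmx-, the same medians were -0.73 and -2.34 for the first pattern. They were 0.77 and -1.17 for the shared pattern and 2.14 and 0.08 for the last. The arrays without tamoxifen gave D1 and N1 of the rule and shared slides with the tamoxifen arrays. Their medians are therefore a description and not a separate check.

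A few members outside the choice above were singled out after their values were seen. Z00024725-1 had a doxycycline difference with tamoxifen of 2.28 on day 1 and 2.82 on day 3 (SE 0.0785 each); whether these differ was not tested. Its change in Dox-Tmx+ was -0.04 from day 1 to day 3 (adjusted p = 0.705 in limma), and it rose by 1.64 between day 1 and day 6. Its log2 ratio in Dox-Tmx+ was -3.37 and -3.39 on day 1, -3.49 and -3.37 on day 3, then -1.87 and -1.60 on day 6. Z00024877-1 had the largest day 6 log2 difference with tamoxifen, 1.07 (SE 0.117, adjusted p = 1.96e-08 in limma). Its D6 minus N6 on the arrays of the rule was 0.03 on the log10 scale of the series matrix. From the scanner intensities the same difference was 0.11 on the log2 scale.

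Z00053931-1 shared a run of 46 bases with another probe of the array, Z00078143-1, which is outside the series matrix. Its doxycycline differences with tamoxifen were 1.83, 1.89 and 0.51 on days 1, 3 and 6, and those of Z00078143-1 were 1.82, 2.04 and 0.58. The change of the difference was -1.32 (SE 0.14) and -1.24 (SE 0.145), and both were called lower in limma (adjusted p = 2.6e-08 and 1.3e-07). Probes that share so much sequence report on the same transcripts and are not separate evidence.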

How the data were processed

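Per the file headers, Agilent Feature Extraction 9.5.1.1 read the spots of the 36 arrays. The deposited intensity values used were the mean of each spot and the median of its local background in both channels, not normalized; background flags marked other deposited values per the file headers. The authors' log10 ratio from that software and the deposited log10 values of the series matrix (column medians 2.37 to 2.46) were alternatives. Matrix values equalled the software's log10 ratio, turned to sample over reference, plus a constant per probe, within 0.001 for 85.1% of values. For 28 members this held on all arrays. The scale was therefore read as a log10 ratio; the source of the constant is not given in the sources used here. These alternatives are thus nearly 1 setting.

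In the values tested, local backgrounds marked as outliers were replaced by the array's median, followed by normexp with offset 50, loess within arrays, averaging of spots and log2 sample over reference. With these ratios 21 members still passed the rule's differences, 9 having a D1 minus N1 under 0.45. Of 42006 probes, the fit kept the 33099 whose sample signal was well above background on each array of 1 group or more. Limma 3.58.1 in R 4.3.3 was fitted to all arrays with 18 group means (18 residual, 4.90 prior degrees of freedom), two-sided, with Benjamini-Hochberg adjustment over all probes. The fit was checked on simulated data. Comparisons of days 1 and 3, of days 3 and 6, of tamoxifen without doxycycline, and of tamoxifen with against without doxycycline were added after the values were seen. Arrays of a group correlated at 0.968 to 0.996, and their number limits the precision.

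Members and lists were chosen with earlier results of these data known. Gene lists and cell type markers could not be applied, since no gene name was paired with the probes. Named probes were limited to 12 roles of the rule's values. Replicate numbers were not used to pair the samples in the main fit. Deviations of same-numbered arrays correlated between -0.35 and 0.45 over 28 pairs of groups. Whether the numbers pair some of the samples cannot be told from this range.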

Additional observations from a re-analysis of the deposited data

Results flagged for a closer look

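The difference between doxycycline and no doxycycline changed between time points by a test of the change itself (day 6 minus day 1, with tamoxifen, limma), in the lower direction for 33 of 33 members, against 21.5% of all probes. Among the named probes the change on the log2 scale was -5.10 for Z00024473-1, -4.50 for Z00030632-1, -4.33 for both Z00050062-1 and Z00020839-1, -2.72 for Z00024619-1, -2.69 for Z00024847-1, -2.35 for Z00035273-1 and -2.19 for Z00045485-1. The value of Z00050062-1 rests on day 1 arrays without doxycycline that were not well above background, so it depends on the offset. The same slides carried the arrays of the rule, and day 1 had a scan day of its own, so the change cannot be told apart from slide and scan. The rule required this difference to narrow in the groups labelled Tmx-, so the count of members is a description.

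The tamoxifen difference on day 3 of Z00050062-1 was larger with doxycycline than without it, a log2 difference of 1.16 between the 2 (limma, SE 0.209, adjusted p = 0.00185, with 2 arrays a group), where 1.96% of all probes were called higher. This comparison was not recomputed with other processing. The tamoxifen difference with doxycycline, on which it rests, was not called with local backgrounds as deposited. No group had 4 arrays, so single arrays were not screened for values far from the others.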

How the results depend on the processing

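Of 146 recomputed counts of members, 134 were within 1.5 times of those given. With a D1 minus N1 of at least 0.6 in the rule, 17 members were left, and 17 of them were called higher on day 1 with tamoxifen, 16 on day 3 with and 16 without it, and 4 higher and 7 lower on day 6. Of these 17, 17 were called lower in the change of the difference, 14 fell with doxycycline and 15 rose without it. With tamoxifen on day 3, 1 of them was lower. The set was smaller and chosen by a stricter limit, and the cause of the moved counts was not tested. With local backgrounds as deposited, tamoxifen beside doxycycline on day 3 had 1 member higher and 1 lower; the cause was not tested. With the rule's differences taken from scanner ratios, 38 probes passed, 21 of them among the 33.

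Leaving out each array in turn gave 33 to 33 members called higher on day 1, 27 to 27 on day 3 with tamoxifen and 27 to 29 without it, and 11 to 14 higher and 12 to 15 lower on day 6. It gave 33 to 33 lower in the change of the difference, 24 to 25 falling with doxycycline, 24 to 26 rising without it, and 2 to 3 higher and 3 to 4 lower with tamoxifen on day 3. The lone array of a group was assumed to vary like the others. With the replicate number as a block (replicate block), the counts were the same in each comparison: 33 on day 1, 27 and 27 on day 3, 12 and 13 on day 6, 33 for the change, 25, 26, 3 and 4.

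Of 680 recomputed values of the named probes, 670 kept their direction and call, 10 lost the call and 0 reversed. Apart from those given in the report, the day 6 difference of Z00045485-1 (adjusted p = 0.144) and the rise of Z00024847-1 with doxycycline (adjusted p = 0.191) were not called with local backgrounds as deposited. Signal close to background limits Z00050062-1 alone among the named probes.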
